A study of Sus scrofa with 9 samples.

Results

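Isolated single bright probes were the members examined here. They are array probes that gave a high signal in every hybridization while the probes with the next lower and the next higher ID did not. A probe was called bright when its log2 intensity exceeded the median of the scan by more than 3 scaled median absolute deviations (scaled to match the SD of a normal distribution) in all 3 scans made at medium PMT, the middle setting of the photomultiplier of the scanner. Bright probes with consecutive IDs were joined into runs, and the members are the runs that held exactly 1 probe. Of 12544 probes, 440 were bright, and these formed 143 runs. The 56 members were 12.7% of the bright probes and 0.446% of all probes. The other bright probes lay in 45 runs of 2 or 3 probes, 25 runs of 4 to 6 and 17 runs of 7 or more. Intensities at medium PMT chose the members, so their levels and their contrast with neighbours at this setting are given as a description, without a test.

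The samples were 9 scans of 1 RNA pool from the pig (Sus scrofa). The pool held small RNA of 20 tissues and white blood cell fractions from 3 pigs aged 12 months, labelled as breed vietnamite and kept on a normal diet. According to the methods, the animals were vaccinated against Aujeszky's disease, parvovirosis and swine erysipelas, and were killed under general anaesthesia. No treatment was compared, and all groups shared this pool. It was hybridized 3 times, and each hybridization was read at low, medium and high PMT, which gave 3 groups of 3 scans. The hybridizations are technical replicates, and they may have been made on a single array, because the titles of all samples share 1 number and arrays could be stripped for reuse according to the methods. P-values therefore measure technical spread only, and no spread between animals was measured. In such a pool, RNA from few cells and little RNA per cell cannot be told apart. Probes had no names, so the labelled tissues were not checked against marker RNAs.

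MicroRNAs (miRNAs) are short RNAs cut from hairpin precursors that repress messenger RNAs. The bases just after the 5′ end, the seed, pair with the target, so a shift of the 5′ end by a single base gives another seed and another set of targets. RAKE reads such an end on an array: Klenow polymerase extends a molecule held by a probe where its 3′ end is paired completely, and not otherwise. Here the bound molecule was a cDNA whose 3′ end copied the 5′ end of the miRNA. Where a precursor had shown a miRNA 3′ end, a tiling path of 16 probes shifted by 1 base spanned the putative 5′ end. A miRNA with a single 5′ end within this span would be read at 1 probe of its path. The question was how sharply the signal of an isolated bright probe dropped to its neighbours, and whether the drop was alike on both sides. The files used here pair the IDs with no sequence, precursor, path or place in a path, and do not state that consecutive IDs are consecutive steps of a path. Neighbours are therefore neighbours in ID.

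At medium PMT the level a probe had to exceed was an intensity of 11897 in hybridization 1, 12819 in hybridization 2 and 10185 in hybridization 3. The median member read 24588 in hybridization 1, 19759 in hybridization 2 and 18360 in hybridization 3. The scan medians over all probes were 605, 1012 and 1295 in the same order. Members thus lay far above the typical probe in each hybridization, while the dimmest of them (12059, 12848 and 10452) lay close to the level. The closest probes inside were probe 6335, at 13358.5, 12848 and 12401, and probe 7565, at 16488, 12962 and 14730. Just outside, probe 9453 read 11791, 65535 and 42557.5 and missed the level in hybridization 1 only, and probe 5028 read 13012.5, 12725 and 9958 and missed it in hybridizations 2 and 3. The top of the 16-bit scale, 65535, was reached in all 3 scans by 5 members and in 1 or 2 scans by another 5. The contrast of a member at this ceiling is a lower bound. At low PMT all 56 members were above the level of each scan, and at high PMT 51, 51 and 53 were.

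The members stood out from the brighter of their 2 neighbours by a median contrast of 1.92 on the log2 scale, or 3.79-fold. Contrast is the log2 intensity of the probe minus that of its brighter neighbour in the same scan, so that a scaling of the scan cancels. The median over members was 2.04 in hybridization 1, 2.05 in hybridization 2 and 1.61 in hybridization 3, a mean of 1.90 ± 0.25 (SD, n = 3). Behind it, the brighter neighbour had a median intensity of 7256, 7543 and 8556, and the dimmer neighbour one of 1815, 1852 and 2146. The members ranged widely, from a contrast of -0.31 to 4.90, with quartiles of 0.60 and 2.51. The median SD of a member's contrast over hybridizations was 0.21, smaller than the spread among members.

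Of the 56 members, 54 were brighter than both neighbours in all 3 hybridizations, against 16.8% of all 12542 probes that have a neighbour on each side. The rule used this contrast, and the share over all probes is given only as its background. The 2 exceptions were probes 2155 and 11848. A contrast of at least 2-fold in all 3 hybridizations was found in 36 members (1.44% of all probes), one of at least 4-fold in 22 (0.478%) and one of at least 8-fold in 6 (0.104%). All 3 probes of the array that exceeded both neighbours at least 16-fold in every hybridization (0.0239%) were members. At the other end, 18 members were under 2-fold over the brighter neighbour in all 3 hybridizations, and 2 passed 2-fold in some hybridizations only. In these members the brighter neighbour was thus of similar intensity in at least 1 scan.

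The 28 members with neighbours below the level in every scan had a median contrast of 2.37 (5.17-fold), and 27 of them were at least 2-fold over both neighbours in all hybridizations. The other 28 had a neighbour above the level in 1 or 2 of the 3 scans, and their median contrast was 0.62 (1.54-fold). Whether a bright probe counted as isolated thus rested, for these 28 members, on a neighbour that missed the level in some scans and passed it in others.

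Probe 5806 had the largest contrast among members that stayed below the ceiling. It read 29329, 43301.5 and 53837 in hybridizations 1, 2 and 3, where its lower-ID neighbour read 989, 1963.5 and 2759.5 and its higher-ID neighbour 444, 946.5 and 1284. The neighbours did not come near the probe in any scan, and the contrast was 4.55 ± 0.31 (SD, n = 3), or 23.4-fold. The next was probe 2206, at 26823, 17469 and 17931, between neighbours at 1121, 971 and 1027.5 on the lower-ID side and 810, 673 and 997 on the higher-ID side. Its contrast was 4.29 ± 0.25, or 19.6-fold, and it held 75.6% of the summed intensity of the 15 IDs centred on it. The 2 probes differed in their surroundings. Around probe 2206 the nearest other bright probe was 33 IDs away, whereas probe 5806 had 6 other bright probes within 7 IDs and held 14.7% of the intensity of its window.

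The highest mean contrast of all, in probe 11800, is a lower bound, and this probe is named after its values were seen. It read 33675 in hybridization 1 and stood at the ceiling in hybridizations 2 and 3. Its lower-ID neighbour read 661.5, 1352 and 1517 and its higher-ID neighbour 1204.5, 2201 and 2033. Its contrast was 4.81 in hybridization 1, and at least 4.90 in hybridization 2 and at least 5.01 in hybridization 3.

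The smallest contrasts belonged to probes 2155 and 11848. Probe 2155 read 14084, 13429 and 10451.5, beside a lower-ID neighbour at 84.5, 114 and 95 and a higher-ID neighbour at 21175.5, 12091.5 and 14607.5. It was dimmer than the higher-ID neighbour in hybridizations 1 and 3 and brighter in hybridization 2, with a contrast of -0.31 ± 0.40. That neighbour missed the level in hybridization 2 only. Probe 11848 read 12236, 26323 and 28313.5, its lower-ID neighbour 10803, 27305.5 and 28203, and its higher-ID neighbour 11582.5, 22774.5 and 22535. The 3 probes moved together over the hybridizations and did not separate, with a contrast of 0.01 ± 0.07. Both neighbours were above the level in hybridizations 2 and 3, and all 3 probes lay close to it in hybridization 1.

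The largest step down from a member was at the first ID on either side. The rule favoured this, since it barred the adjacent probes, but none farther out, from being bright. The median member was 2.36 ± 0.07 (log2, SD over hybridizations, n = 3) brighter than the probe 1 ID lower and 2.58 ± 0.27 brighter than the probe 1 ID higher. At 2 IDs the differences were 3.01 ± 0.13 on the lower side and 2.71 ± 0.31 on the higher side, and at 3 IDs 3.17 ± 0.17 and 2.80 ± 0.16. Farther out the values did not fall steadily, with 2.62 ± 0.19 at 5 IDs lower, 4.26 ± 0.61 at 5 IDs higher, and 3.79 ± 0.60 and 3.42 ± 0.43 at 8 IDs. Outside the repeated stretch described below, the order of the sides at 1 ID turned, with 2.43 ± 0.20 on the lower and 2.10 ± 0.27 on the higher side. Against the median of the 14 probes within 7 IDs, the median member was 3.49 brighter, against 1.92 for the brighter of the 2 adjacent probes.

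Many members were the highest point of their neighbourhood. In a window of 15 IDs, 33 members were the brightest probe in all 3 hybridizations, 10 in 1 or 2 of them and 13 in none. The median member held 25.8% of the summed intensity of its window, where an equal share would be 6.67%, and the members ranged from 5.37% to 76.4%. The rule took bright probes with adjacent probes that were not bright, so it favoured a high rank and a high share. The equal share is a point of reference and no background for probes chosen in this way. A share over 50% was found in 8 members. Another bright probe lay 2 IDs away for 14 members, 3 to 7 IDs away for 18, 8 to 15 IDs away for 8 and farther for 16. In the 24 members with no other bright probe within 7 IDs, the member was the only bright probe of its window. Their shares of the window ranged from 10% in probe 9455 to 76.4% in probe 11790.

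In the 14 members with a bright probe 2 IDs away, a single probe that was not bright in all 3 scans separated 2 bright ones. There were 14 such gaps, and in 13 of them the probe between was dimmer than both flanking probes in all 3 hybridizations. In 10 gaps it was at least 2-fold dimmer than the lower of these in every hybridization. The rule required the probe between to miss the level in at least 1 scan, which 10 of the 14 did in all 3 scans. At the other end, the probe between was brighter than probe 2155 in hybridizations 1 and 3. The median depth was 4.00 (16-fold), with a range from -0.31 to 5.62. The deepest gap, named after its values were seen, lay between 2 members. Probe 2122 read 27022.5, 20504.5 and 17921 and probe 2124 read 29170.5, 22455.5 and 18951, while probe 2123 between them read 287, 471.5 and 621, which is 49.1-fold lower on average. Outside the repeated stretch described next, the median depth of the 9 gaps was 1.62, and 5 were at least 2-fold deep in all hybridizations.

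The members were not 56 unrelated places on the array. A stretch of 20 consecutive IDs, found after the values were seen, recurred with nearly the same intensities at 6 places, starting at IDs 63, 1717, 3945, 8101, 11125 and 12379. Their 15-ID profiles lay within a root mean square difference of 0.0937 to 0.57 (log2) of a reference profile, the mean of 5 of the copies. The copy starting at ID 63, at 0.57, had no part in this reference. A window was taken as a copy up to a difference of 0.8, and the next most similar window of the array was at 1.20. The ends of the stretch were set where the SD of the log2 intensity over the 6 copies first passed 0.5. A lower SD inside than just outside thus follows from the definition. The SD was at most 0.35 at each of the 20 positions, and 0.94 and 0.95 at the positions just before and just after. The sources used here do not say what these probes are, and their sequences were not compared. The copies held 10 of the 56 members, at only 2 of the 20 positions.

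At position 4 of the stretch, all 6 copies stood at the ceiling in all 3 hybridizations, and 5 of them (probes 66, 1720, 3948, 8104 and 12382) were members. In the remaining copy the lower-ID neighbour also passed the level, which made a run of 2. The lower-ID neighbours of the 6 copies read between 7812 and 18628.5 and the higher-ID neighbours between 1840 and 5097.5, with no overlap of the 2 sides. Position 6, on the far side of the dim position 5, was again at or near the ceiling, between 50676.5 and 65535. The contrast at position 4 is thus a lower bound in every copy, with a mean over copies of 2.14 in hybridization 1, 2.60 in hybridization 2 and 2.68 in hybridization 3.

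At position 12, 5 copies were members, namely probes 1728, 3956, 8112, 11136 and 12390. The sixth copy, probe 74, read 10803, 14001 and 12792 and missed the level in hybridization 1 only. Over the 6 copies position 12 read 10803 to 31628.5, position 11 read 2462 to 6526.5 and position 13 read 250 to 1168, so that the 3 positions did not overlap. The mean contrast over copies was 2.23 ± 0.23 in hybridization 1, 2.28 ± 0.08 in hybridization 2 and 2.33 ± 0.08 in hybridization 3 (SD over 6 copies). The copies thus gave the contrast with a spread of 0.13 (SD over copies, averaged over hybridizations). The hybridizations gave it with a spread of 0.09 (SD over hybridizations, averaged over copies). The asymmetry at this position moved more. It was 4.02 in hybridization 1, 2.55 in hybridization 2 and 1.86 in hybridization 3, where the dim position 13 read 250 to 363, 463 to 807 and 684.5 to 1168.

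The copies carry weight in the summary over members, since they share their profile and are not independent members. Without them, the 46 other members had a median contrast of 1.50 (2.82-fold), with 1.46 ± 0.18 as the mean of the 3 hybridization medians, and 26 of 46 (56.5%) were at least 2-fold over both neighbours in all hybridizations. All 10 members of the stretch passed 2-fold, and all 18 members under 2-fold lay outside it.

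Asymmetry, the log2 intensity of the lower-ID neighbour minus that of the higher-ID neighbour, has no direction fixed by the rule, which treats both sides alike. Its median size was 1.74, so the 2 neighbours of a typical member differed 3.34-fold. The lower-ID neighbour was brighter in all 3 hybridizations in 29 members (43% of all probes) and the higher-ID neighbour in 21 (39.2%), and in 6 the order changed. With a difference of at least 2-fold in every hybridization, the counts were 23 on the lower-ID side (10.1% of all probes) and 14 on the higher-ID side (11%), and 16 members stayed within 2-fold throughout. All 10 members of the repeated stretch had the brighter neighbour on the lower-ID side. Among the other 46 members the 2 sides were close to even, with the lower-ID neighbour brighter in 19 and the higher-ID neighbour in 21, and at least 2-fold in 13 and 14.

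In limma's test of the asymmetry against 0 in the 3 medium PMT scans, with Benjamini-Hochberg adjustment over all 12542 probes with 2 neighbours, 45 of 56 members were called at 0.05. The rule used the intensities of both neighbours in these scans, so the calls are given as a description. In the same fit 62.2% of all probes were called. Of the members called, 26 had the brighter neighbour on the lower-ID side, a direction called in 32.7% of all probes, and 19 on the higher-ID side (29.5%). Outside the repeated stretch the calls were 16 and 19. When the fit was limited to the 1289 probes that were above the level, or beside one above it, in a scan, 75.8% were called, so that the count among members differed little from that around bright probes in general.

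The most lopsided member had nearly all of its neighbouring signal on 1 side. In probe 2155, whose values are given above, the asymmetry was -7.32 ± 0.62 (log2, SD, n = 3). The lower-ID neighbour, at 84.5, 114 and 95, lay close to the lowest intensity of each scan (60, 79 and 82), and the asymmetry became -9.37 when that minimum was subtracted, so that its size is not settled. In probe 6335, at 13358.5, 12848 and 12401, the lower-ID neighbour read 188, 251 and 283 and the higher-ID neighbour 4553.5, 5300 and 5646. The asymmetry was -4.44 ± 0.14 (SD, n = 3), while the probe itself stayed 2.5-fold brighter than the higher-ID neighbour.

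Towards the other side, probe 603 read 16802, 18308 and 17840, with a lower-ID neighbour at 11504.5, 14223 and 14957 and a higher-ID neighbour at 446, 930 and 1299. The lower-ID neighbour was thus close to the probe in each scan, and the asymmetry was 4.05 ± 0.59 (SD, n = 3). Probe 376 had the same shape. It read 18329, 14657 and 12444.5, beside 14097.5, 11859 and 9630 on the lower-ID side and 725, 1003 and 1548 on the higher-ID side, with an asymmetry of 3.49 ± 0.82 (SD, n = 3). These probes were picked for the size of their asymmetry, so no p is given for them. These 2 members exceeded the brighter neighbour by only 1.31-fold and 1.28-fold, and each had a neighbour that passed the level in some scans. The pattern was that of an edge, where the intensity fell 16.6-fold and 11.3-fold across 2 IDs.

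The size of the contrast was also measured in hybridizations that had no part in choosing the probes. When isolated bright probes were chosen from hybridizations 2 and 3 alone, 86 were found, and in hybridization 1 80 of them were brighter than both neighbours (25.9% of all probes) and 51 (59.3%) at least 2-fold (2.07% of all probes). Of the 57 chosen without hybridization 2, 56 were brighter than both neighbours in it (26.2% of all probes) and 39 (68.4%) at least 2-fold (2.13%). Of the 57 chosen without hybridization 3, 55 were brighter than both in it (26.4%) and 37 (64.9%) at least 2-fold (2.1%). The median contrast in the hybridization left out was 1.47, 2.02 and 1.63 in that order. Being above the level carried over less evenly, with 49 of 86 (57%) in hybridization 1, 49 of 57 (86%) in hybridization 2 and 55 of 57 (96.5%) in hybridization 3. Isolation carried over in fewer. In the hybridization left out, 37 of 86, 41 of 57 and 32 of 57 were isolated bright probes, in the same order. The side of the brighter neighbour carried over in 76 of 86, 54 of 57 and 55 of 57. It did so in all 48, 38 and 41 of those whose neighbours differed at least 2-fold in the hybridizations used for the choice. A steady side was common on the array. Over all probes, the lower-ID neighbour was brighter in all 3 medium PMT scans in 43% and the higher-ID neighbour in 39.2%. The carried-over side is thus not particular to the chosen probes. The hybridizations may share an array, so these values do not measure a second set of probes.

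Among bright runs, the members dropped at their edges about as far as short runs and less far than the longest. The smaller of the 2 edge drops had a median of 1.90 ± 0.25 (log2, SD over hybridizations, n = 3) for the members, 1.50 ± 0.15 for runs of 2 or 3, 1.75 ± 0.35 for runs of 4 to 6 and 4.24 ± 0.44 for runs of 7 or more. Each value follows from the rule that cut the runs, and no test was made. The brightest probe of a run was at least 2-fold over both neighbours in all hybridizations in 36 of 56 members. The same held in 3 of 45 runs of 2 or 3 and in 0 of the 42 longer runs. By definition each probe of a run of 2 or more has a bright neighbour, and inner probes have 2. The rule thus favoured this difference.

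The scanner setting moved the contrast of the median member little. The median contrast of 1.92 at medium PMT stood between 1.93 at low and 1.62 at high PMT, and without the repeated stretch it was 1.45 at low, 1.50 at medium and 1.36 at high PMT. The median change of a member from low to high PMT was -0.01. A limma fit without a block took the 9 scans as independent, although scans with the same number are rescans of 1 hybridization. In this fit, 4 of 56 members were called at an adjusted p of 0.05 (0.159% of all probes). All had the smaller contrast at high PMT (0.0478%) and none the larger (0.112%). They were probes 1720, 3948, 8104 and 12382, copies of position 4 that stood at the ceiling in all 9 scans. For these probes only the neighbour could differ between settings, so their values of -1.57, -1.55, -1.62 and -1.73 are differences between lower bounds and no measure of a change in contrast. With the hybridization as a block, 6 members were called (1.43% of all probes), again all smaller at high PMT (1.01%) and none larger (0.415%), which added probe 66 (-1.35) and probe 2079 (-0.85), both at the ceiling in all 3 high PMT scans. With probes at the ceiling, or beside one at it, left out, 0 of 43 members were called in the blocked limma fit. Of these members, 2 had an unadjusted p below 0.05, as did 1520 of the 12143 probes tested. That fit still called 179 of 12143 probes (1.47%), 167 of them smaller at high PMT. The count of 0 in 43 was near this share. Without the block, 5 members were called when hybridization 1 was left out (0.215% of all probes). When hybridization 2 or 3 was left out, 0 members were called, where 6 and 7 had an unadjusted p below 0.05. Over all 12542 probes, 98 and 298 had such a p. These fits called 0 of all 12542 probes, so the 0 is no result about the members.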

How the data were processed

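The authors hybridized poly(A)-tailed, reverse-transcribed small RNA to a CombiMatrix array, extended it with biotinylated dATP, stained it with Cy3-streptavidin and quantized 16-bit images with the CombiMatrix imager software. The deposited values are linear intensity per probe, in steps of 0.5. The methods call the uploaded quantization raw, while background subtraction by the software and scaling between scans are not given in the sources used here. No value was 0, so log2 was taken without a pseudocount. An additive background would pull every contrast towards 0. Groups and hybridization numbers came from the sample titles, and 0 columns were left unused. Levels, runs, contrast and asymmetry were computed with Python 3.11.15, numpy 2.4.6 and pandas 2.3.3. Tests used limma 3.58.1 (lmFit and eBayes, R 4.3.3), two-sided, with Benjamini-Hochberg adjustment over 12542 probes at 0.05, and probes without variance at the ceiling were offset by limma. The 3 hybridizations limit the precision. Scripts were tested on simulated data.

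Scans with the same number are rescans of 1 hybridization: their contrast residuals correlated at 0.857 to 0.931 (9 pairs), against -0.720 to -0.0304 for different numbers (18 pairs). Named probes were the 2 largest and 2 smallest contrasts below the ceiling and the 2 largest asymmetries to each side, and others are said to be named after their values were seen. The members, rules and tests were chosen with earlier results of these data known. Alternatives covered the level, scan setting, neighbour definition, background, normalization, ceiling, hybridizations left out and block; leave-outs with the block and the repeated stretch were added after seeing the data.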

Additional observations from a re-analysis of the deposited data

Results flagged for a closer look

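In limma's fit without a block, 4 members were called for a difference between scanner settings in the contrast with the brighter neighbour. This fit ignored that the scans of a hybridization are paired. The share called over all probes was 0.159%. The differences, high minus low PMT, were -1.57 in probe 1720, -1.55 in probe 3948, -1.62 in probe 8104 and -1.73 in probe 12382 (log2). All 4 are copies of the same position of the repeated stretch and were at the ceiling in all 9 scans, so these are differences between lower bounds and measure no change of contrast.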

How the results depend on the processing

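The number of isolated bright probes depended on the rule. It was 56, against 137 at a level of 2 scaled median absolute deviations, 27 at 4, 89 with the mean of the 3 scans, 28 with neighbours below the level in every scan, 24 with no other bright probe within 7 IDs and 16 within 15 IDs. Leaving out 1 hybridization gave 57 to 86, with 86 without hybridization 1. The median contrast of 1.92 became 1.62 at high PMT, 2.81 against the mean of both neighbours, 3.49 against the median of the 14 probes within 7 IDs, 1.59 without members at the ceiling, 2.37 with neighbours below the level in every scan, 1.50 outside the repeated stretch, and 1.34 to 2.15 with 1 hybridization left out. Of the named contrasts, that of probe 5806 moved from 4.55 to 4.14 at high PMT, where it reached the ceiling in 2 scans. Of the named asymmetries, that of probe 2155 moved from -7.32 to -9.37 after subtracting the scan minimum, and that of probe 6335 from -4.44 to -4.94 after the same step and to -4.97 with normexp background correction. The count at least 2-fold over both neighbours (26 to 49) and the count called for asymmetry (31 to 46) stayed within 1.5 times their main counts. The number of probes counted differed between alternatives. As a share, the 2-fold count ran from 56.5% (26 of 46 outside the repeated stretch) to 96.4% (27 of 28 with neighbours below the level in every scan). The 31 came without hybridization 2, where 29.4% of all probes were called for asymmetry, against 62.2% in the main fit.

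For high against low PMT, 4 members were called without the replicate block (0.159% of all probes) and 6 with it (1.43%). With the block, 5 were called after subtracting the minimum of each scan (0.351%). With the block and without probes at or beside the ceiling, 0 were called, where the share over the probes tested was 1.47%. Leaving out 1 hybridization gave 0 to 5 (0% to 0.215% of all probes), and 5 to 9 with the block (0.399% to 1.26%). The 9 came without hybridization 1 (0.877%). The ceiling limits the brightest members to lower bounds, and the dim side of a contrast rests on intensities whose background treatment is unknown.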
